A study of Mus musculus with 6 samples.

Results

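The accessible regions of mouse chromosome 15 were taken as the ATAC-seq peaks that lie on that chromosome in a list from wildtype (WT) dermal fibroblasts and a list from dermal fibroblasts without Lap2alpha (KO). Chromosome 15 held 5220 WT and 5194 KO peaks, 10414 of the 204204 peaks over both lists. The chromosome was chosen with its ratio of KO to WT peaks known, so that ratio is given as a description. The study compared 3 WT with 3 Lap2alpha KO libraries of cultured dermal fibroblasts, which the labels call a cell line. Both genotypes were grown in the same serum-supplemented medium. The sources used here do not give age, sex or strain, or whether libraries came from separate animals, clones or cultures. Each list combined the 3 libraries of its genotype, so the genotype could not be checked at the targeted transcript, no value below has a spread between replicates, no comparison has a test, and the sequencing depth is unknown. The 95% Wilson intervals cover counting error alone, and neighbouring peaks are not independent.

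In ATAC-seq the Tn5 transposase cuts and tags DNA that is not wrapped tightly in nucleosomes, so a peak marks an open promoter, enhancer or other regulatory site. LAP2alpha is the splice form of the Tmpo gene that stays in the nuclear interior, where it binds A-type lamins, while lamins at the nuclear rim contact mostly gene-poor, closed chromatin. Promoters rich in CpG dinucleotides are open in many cell types, whereas sites far from genes differ more between cell types.

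Promoter windows show the range of sequence behind these calls. The windows run from 250 bases before to 50 bases after a RefSeq transcript start on build GRCm38.p6, 300 bases in all, read 5′ to 3′ along the gene. RefSeq entries with sequence were matched for 422 of the 776 protein-coding genes of chromosome 15, and 936 windows lay on it. Capitals mark CpG dinucleotides. Tns2 and Ptger4 are shown because their windows lay under very strong peaks of both lists, Prickle1 because its window was covered in KO alone, and Fbxl7 and Retreg1 because theirs were covered in WT alone. Cdh18 and Tafa5 are shown because they lead the WT and KO differences described below. All but Tns2 and Ptger4 were chosen after their values were seen.
Tns2 promoter, chr15:102102684-102102983, plus strand: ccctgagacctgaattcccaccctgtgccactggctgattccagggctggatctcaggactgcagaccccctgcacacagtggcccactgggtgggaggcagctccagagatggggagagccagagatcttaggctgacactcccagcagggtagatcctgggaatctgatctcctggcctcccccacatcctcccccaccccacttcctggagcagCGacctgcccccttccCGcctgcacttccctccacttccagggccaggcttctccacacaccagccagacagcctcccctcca
Ptger4 promoter, chr15:5244138-5244437, minus strand: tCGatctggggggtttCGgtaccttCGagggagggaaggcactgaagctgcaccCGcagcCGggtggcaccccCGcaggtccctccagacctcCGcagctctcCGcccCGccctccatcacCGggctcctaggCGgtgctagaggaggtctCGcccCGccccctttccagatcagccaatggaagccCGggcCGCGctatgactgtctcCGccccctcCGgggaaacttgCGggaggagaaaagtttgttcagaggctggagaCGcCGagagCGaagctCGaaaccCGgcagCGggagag
Prickle1 promoter, chr15:93595853-93596152, minus strand: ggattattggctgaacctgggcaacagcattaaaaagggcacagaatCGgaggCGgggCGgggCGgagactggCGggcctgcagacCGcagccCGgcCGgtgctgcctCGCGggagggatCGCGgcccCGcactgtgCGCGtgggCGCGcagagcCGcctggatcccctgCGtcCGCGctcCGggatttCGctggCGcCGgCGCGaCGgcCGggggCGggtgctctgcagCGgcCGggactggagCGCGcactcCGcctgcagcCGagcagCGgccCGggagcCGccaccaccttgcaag
Fbxl7 promoter, chr15:26895515-26895814, minus strand: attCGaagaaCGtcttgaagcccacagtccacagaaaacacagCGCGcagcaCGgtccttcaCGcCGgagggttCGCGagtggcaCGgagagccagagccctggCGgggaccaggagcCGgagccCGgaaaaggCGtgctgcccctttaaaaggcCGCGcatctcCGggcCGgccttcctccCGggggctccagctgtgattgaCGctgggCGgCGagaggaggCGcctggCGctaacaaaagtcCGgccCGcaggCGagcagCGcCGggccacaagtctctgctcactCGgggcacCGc
Retreg1 promoter, chr15:25940452-25940751, plus strand: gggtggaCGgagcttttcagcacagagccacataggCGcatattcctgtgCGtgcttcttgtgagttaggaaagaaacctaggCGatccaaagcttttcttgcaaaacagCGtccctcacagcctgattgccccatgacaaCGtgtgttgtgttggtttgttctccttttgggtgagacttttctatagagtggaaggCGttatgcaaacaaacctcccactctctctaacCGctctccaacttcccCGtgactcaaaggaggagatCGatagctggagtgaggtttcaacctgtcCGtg
Cdh18 promoter, chr15:23036213-23036512, plus strand: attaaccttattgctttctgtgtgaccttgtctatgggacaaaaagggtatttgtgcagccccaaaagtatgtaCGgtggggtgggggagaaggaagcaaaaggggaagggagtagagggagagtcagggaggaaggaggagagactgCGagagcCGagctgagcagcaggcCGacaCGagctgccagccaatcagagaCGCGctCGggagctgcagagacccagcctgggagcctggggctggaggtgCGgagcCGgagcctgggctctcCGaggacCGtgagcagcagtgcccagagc
Tafa5 promoter, chr15:87544049-87544348, plus strand: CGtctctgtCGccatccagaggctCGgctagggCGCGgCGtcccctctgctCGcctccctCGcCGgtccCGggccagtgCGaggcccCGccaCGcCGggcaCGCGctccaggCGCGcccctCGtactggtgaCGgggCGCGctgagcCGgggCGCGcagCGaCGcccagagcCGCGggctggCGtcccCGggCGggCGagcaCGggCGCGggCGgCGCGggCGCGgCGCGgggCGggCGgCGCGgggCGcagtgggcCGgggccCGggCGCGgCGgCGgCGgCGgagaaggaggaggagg

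The Tns2 window, at an internal start of a gene for a focal adhesion protein, had 2 CpGs and a GC content of 63.7%, and its peak stood at signal percentile 99.97 in both lists. A signal percentile ranks the authors' signal of a peak within the whole list of its genotype. Percentiles of lists of different length are given side by side and show no change by themselves. The Ptger4 window, at the prostaglandin E2 receptor EP4 gene, had 25 CpGs and percentiles of 99.95 in WT and 99.95 in KO. Strong peaks therefore covered windows poor and rich in CpGs. The WT peaks at Tns2 and Ptger4 were 5952 bp and 6196 bp wide, with summits at 102104402 and 5244768, outside the printed windows. Their percentiles describe the whole peaks and not the windows.

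The Prickle1 window, at a planar cell polarity gene, had 39 CpGs and lay under a KO peak from 93595687 to 93596103 at percentile 47.7. The Fbxl7 window, at an F-box protein gene, had 31 CpGs and lay under a WT peak at percentile 29.1. The window at an internal start of Retreg1, a receptor for autophagy of the endoplasmic reticulum, had 11 CpGs and 1 TGANTCA motif, the core of an AP-1 site, and lay under a WT peak at percentile 71.1. The Tafa5 window, at a gene for a small secreted protein, had 56 CpGs and a GC content of 83.7% and was covered in neither list.

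Over the 936 windows, those covered in both lists were richest in CpGs, as they were over all chromosomes. They numbered 389, or 41.6% of windows, against 39.0% over all chromosomes. Their median was 21 CpGs and their median GC content 61.7%, against a median of 4 CpGs in the 525 windows covered in neither list. Over all chromosomes the medians were 21 CpGs, 61.3% and 4 CpGs. Windows covered in a single list were few: 14, or 1.496%, in WT (1.88% of windows over all chromosomes) and 8, or 0.855%, in KO (0.813%). Their medians were 3 and 5 CpGs, near that of the uncovered windows. Their upper quartiles were 13.25 in WT and 16.25 in KO. The printed Fbxl7 and Prickle1 windows, with 31 and 39 CpGs, are thus not typical of them.

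Motifs were counted on both strands, each on its own, so a window could hold several and neighbouring motifs could share bases. GGGCGG, the GC box, was in 63.5% of windows covered in both lists, 16.2% of those covered in neither and 35.7% of windows on all chromosomes. TATAAA was in 6.94% of windows covered in both lists, 17.7% of those in neither and 13.6% of all windows. CCAAT differed little, with 35.2% in both lists, 36.2% in neither and 37.4% of all windows. TGANTCA was in 7.97% of windows covered in both lists and 7.81% of all windows, in 4 of the 14 windows covered in WT alone and in 0 of the 8 covered in KO alone. Over all chromosomes 13.5% of windows covered in WT alone and 11.2% of those covered in KO alone held it, and counts of 14 and 8 are too small to set against these shares. A motif match describes the letters of a window and does not show that a factor binds there.

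Chromosome 15 had nearly as many peaks in KO as in WT, while KO had fewer over the whole genome. KO had 99.5% of the WT peak number on chromosome 15 and 92.4% over all chromosomes, a log2 ratio relative to all chromosomes of 0.11 (0.05 to 0.16, counting error). That was the fourth highest of 20 chromosomes, Y left out. The covered length was 3664 kb in WT and 3950 kb in KO, or 107.8%, against 94.0% over all chromosomes. On chromosome 15 KO thus had a slightly lower number of peaks that together covered more bases.

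Peaks found in a single genotype showed the same contrast. A peak with no peak of the other list overlapping it by 1 bp is called WT-only or KO-only, and the others are called shared. Of the WT peaks 813, or 15.6% (14.6% to 16.6%), were WT-only, against 20.4% over all chromosomes. Of the KO peaks 903, or 17.4% (16.4% to 18.4%), were KO-only, against 13.4% over all chromosomes. KO-only peaks exceeded WT-only peaks by 90 on chromosome 15, while the same difference over all chromosomes was -8531.

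The sign of that small excess depended on how a shared peak was defined and on which peaks were counted. With a reciprocal overlap of 50% it was -26, and with a peak within 1 kb counted as a partner it was 45. Among the upper 50% of peaks by signal, under the rule of 1 bp, it was -17. Without a partner within 1 kb were 12.0% of the WT peaks, against 15.6% over all chromosomes, and 13.0% of the KO peaks, against 10.7%. The contrast with the genome was thus present in both lists under that looser rule.

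**Figure D1:**
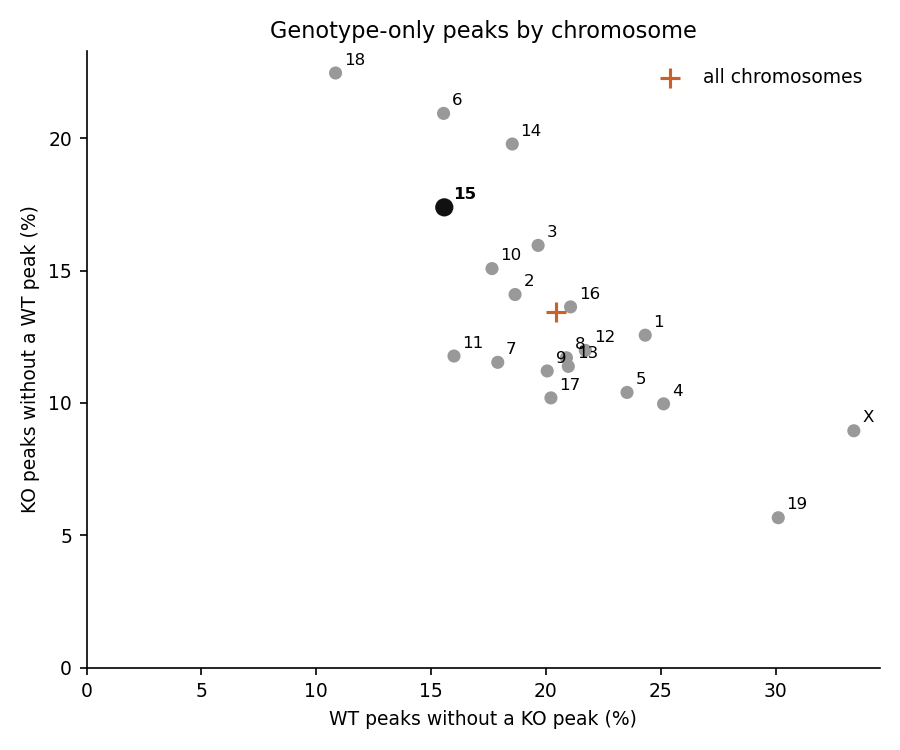
Share of WT peaks without a KO peak (horizontal axis, percent) against share of KO peaks without a WT peak (vertical axis, percent), with a point for each chromosome but Y and a cross for all chromosomes. Chromosome 15, at 15.6% and 17.4%, lies left of and above the cross at 20.4% and 13.4%, between chromosomes 6 and 10.

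Of the chromosomes set beside it, 18 and 6 departed further from the genome and 10 less. Chromosome 6 had 15.5% WT-only and 20.9% KO-only peaks, close to chromosome 15 in the first value and above it in the second. Chromosome 10 had 17.7% and 15.1%, and chromosome 18 had 10.8% and 22.5%. Of the 776 protein-coding genes of chromosome 15, 66.9% had a peak near an end in both lists, against 50.6% on chromosome 6, 59.1% on 10 and 57.8% on 18. These are counts from single lists, and no test of the differences was possible.

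Along the chromosome the 2 lists did not differ evenly. In blocks of 5 Mb, 20 of 21 held at least 20 peaks over both lists. Of these 20, KO-only peaks outnumbered WT-only peaks in 11, were outnumbered in 8 and were equal in 1. That is 55% with a KO excess, against 23.5% of the 524 such blocks over all chromosomes but Y. The KO number ran from 25.9% to 114.5% of the WT number, with a median of 98.7%, and 15 of the 20 blocks lay above the genome ratio.

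Of the 11 blocks with a KO excess, 8 lay beyond 55 Mb. The largest excess was at 55 to 60 Mb, the block of Deptor, Has2, Zhx2 and Trib1, with 352 WT and 403 KO peaks, 34 WT-only and 97 KO-only. The block at 80 to 85 Mb, with Mrtfa, Ep300 and Tcf20, had 434 WT and 476 KO peaks, 32 WT-only and 89 KO-only. At 75 to 80 Mb, the block of Plec, Myh9 and Rbfox2 with 158 genes, the numbers were 568 and 601, with 51 WT-only and 95 KO-only. Across the 20 blocks, the KO percent of WT and the number of genes had a Spearman rho of 0.54 and a Pearson r of 0.35, values that describe neighbouring blocks of the same 2 lists. Without the block at 20 to 25 Mb they were 0.47 and 0.34.

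**Figure D2:**
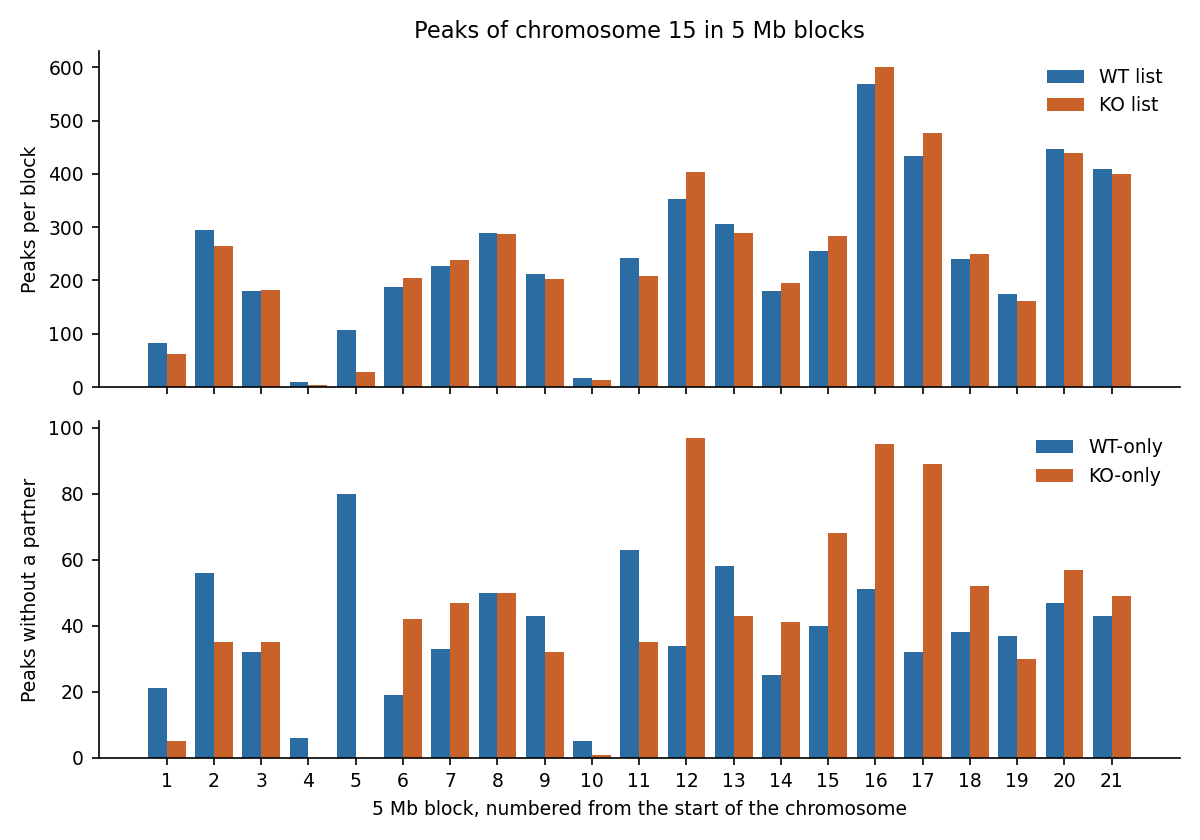
Peaks of chromosome 15 per 5 Mb block (upper panel) and peaks without a partner in the other list (lower panel), as counts, with WT and KO bars side by side and blocks numbered from the start of the chromosome. Block 5 shows 80 WT-only and 0 KO-only peaks, while blocks 12, 16 and 17 show 97, 95 and 89 KO-only peaks.

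A single gene-poor block ran far in the other direction. Between 20 and 25 Mb, where 4 protein-coding genes lie, WT had 108 peaks and KO 28. Of the WT peaks 80 were WT-only, and 0 of the KO peaks were KO-only, so each KO peak there overlapped a WT peak. The WT list covered 44.9 kb of the block and the KO list 12.3 kb. Cdh12 and Cdh18, genes of type II cadherins, adhesion receptors best known from the nervous system, lie in this block.

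In this block the WT peaks with a KO partner ranked above those without, and the partners were mostly narrower. The shared WT peaks had a median percentile of 69.6 and the WT-only peaks one of 29.6, with a highest value of 72.6. The KO peaks had a median percentile of 50.2. In the 28 pairs with 1 peak in each list, the median width was 617.5 bp in WT and 404.5 bp in KO, and KO was the wider in 6 of 28, or 21.4%. Over the 3835 such pairs of chromosome 15, KO was the wider in 60.2%. The pairs of this block thus differed in direction from those of the chromosome as a whole.

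Next to it the block at 15 to 20 Mb, around Cdh9 and Cdh10, held 9 WT and 3 KO peaks, too few for a ratio. The other blocks with a WT excess of more than 10 peaks were at 50 to 55 Mb, with 63 WT-only and 35 KO-only peaks, and at 5 to 10 Mb, with 56 and 35. Trps1, a zinc finger repressor of the skeleton and hair follicle, lies in the first of these, and Slc1a3 and Ranbp3l in the second. The first block of the chromosome, at 0 to 5 Mb, had 21 WT-only and 5 KO-only peaks, and its KO number was 76.8% of WT, lower than in those at 50 to 55 Mb (86.4%) and 5 to 10 Mb (89.8%). The blocks at 60 to 65 Mb and 40 to 45 Mb had 58 and 43 and 43 and 32.

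At the scale of 1 Mb the differences concentrated further. The window from 72 to 73 Mb, with the end of Col22a1 at the higher coordinate, held 25 WT and 54 KO peaks. Of these 1 was WT-only and 29 were KO-only. The window from 81 to 82 Mb had 118 and 136 peaks with 5 WT-only and 30 KO-only, and that from 57 to 58 Mb, with Slc22a22 and Zhx2, had 40 and 62 with 1 and 23. On the WT side, the window from 23 to 24 Mb had 42 WT and 12 KO peaks with 30 WT-only and 0 KO-only. The window from 60 to 61 Mb had 40 and 18 peaks with 23 and 0, and that from 51 to 52 Mb had 64 and 42 with 26 and 4. Windows with a KO excess and windows with a WT excess thus lay within a few Mb of each other between 50 and 61 Mb.

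WT-only and KO-only peaks were mostly narrow and weak, here as over the genome. The median width of WT-only peaks was 236 bp and their median percentile 17.4, and of KO-only peaks 259 bp and 16.5. Over all chromosomes these medians were 231 bp and 17.8 in WT and 245 bp and 16.5 in KO. Shared peaks had medians of 566 bp and 58.2 in WT and of 628 bp and 61.6 in KO. The deposited score equals the signal per base of peak length up to a ceiling, so signal and width are linked. Among the upper 50% by signal, 80 WT and 63 KO peaks lacked a partner, which was 9.84% of the WT-only peaks (8.53% over all chromosomes) and 6.98% of those in KO alone (8.97%). In the strongest decile the numbers were 1 of 591 WT peaks and 0 of 669 KO peaks, and a count of 0 in 669 allows a share of up to 0.448%. Over all chromosomes they were 11 of 10613 and 8 of 9807.

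By peak number the contrast with the genome was present among strong and weak peaks. In the upper 50% by signal of each list chromosome 15 had 2691 WT and 2757 KO peaks, a log2 ratio relative to all chromosomes of 0.15, and in the lower 50% it had 2529 and 2437, a ratio of 0.06. In the strongest decile the numbers were 591 and 669, or 113.2%, against 10613 and 9807, or 92.4%, over all chromosomes.

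The shares without a partner differed from those of the genome in the weak deciles. In the weakest decile 47.6% of WT peaks (43.2% to 52.0%) lacked a KO partner, against 62.5% over all chromosomes. In the same decile 59.4% of KO peaks (55.1% to 63.6%) lacked a WT partner, against 44.3%. By the sixth decile the values were 7.23% against 8.98% in WT and 5.53% against 5.78% in KO, inside the counting intervals. In the stronger deciles few peaks of any chromosome lacked a partner, 0.104% of WT and 0.0816% of KO peaks in the strongest, so this share cannot show a difference there.

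**Figure D3:**
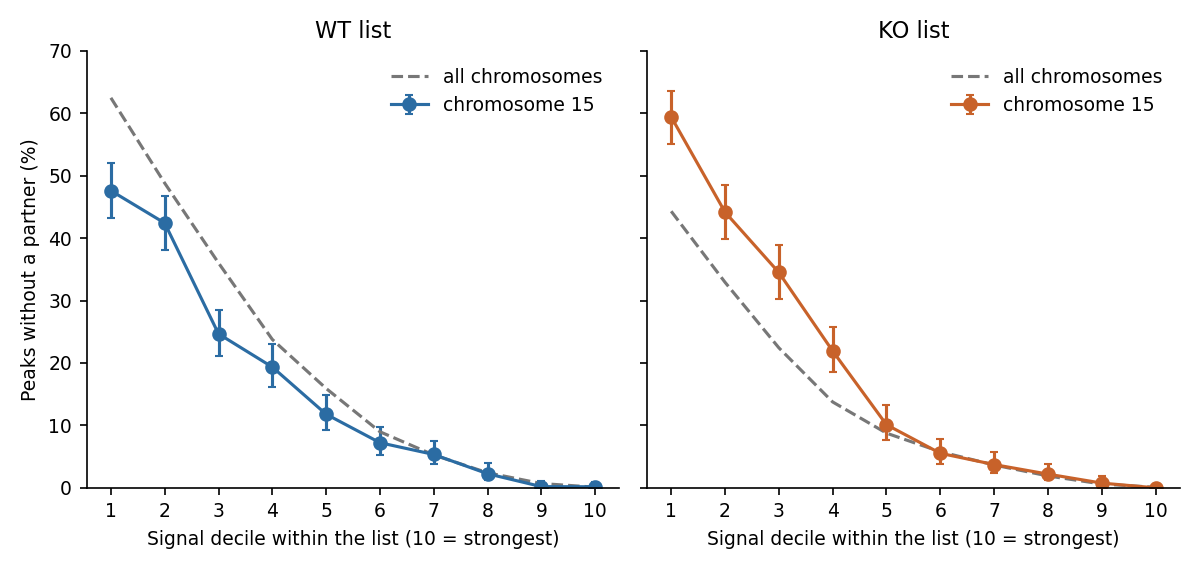
Share of peaks without a partner in the other list (percent) by signal decile within the list, from 1, the weakest, to 10, for WT (left) and KO (right); points are chromosome 15 with 95% Wilson intervals and dashed lines are all chromosomes. In the weakest decile chromosome 15 lies below the dashed line in WT (47.6% against 62.5%) and above it in KO (59.4% against 44.3%), and from decile 6 on the intervals include the dashed line.

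Shared peaks were also wider in KO on this chromosome. In pairs with 1 peak in each list the median width was 544 bp in WT and 594 bp in KO, and KO was the wider in 60.2% of 3835 pairs, against 47.0% of 75840 over all chromosomes. The share was 62.5% on chromosome 6, 51.7% on 10 and 71.7% on 18. Summits lay within 50 bp of each other in 80.4% of pairs, against 79.6% over all chromosomes. The sites were thus placed alike, while their called width differed. Of the 5 Mb blocks with at least 20 pairs, that at 80 to 85 Mb had the highest share of wider KO peaks, 68.5% of 340 pairs. The lowest was the cadherin block and the next lowest that at 0 to 5 Mb, with 48.1% of 52.

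KO peaks of chromosome 15 also spanned several WT peaks more often than the reverse. Of the shared KO peaks 5.38% overlapped 2 or more WT peaks, against 3.31% over all chromosomes. Of the shared WT peaks 2.90% overlapped 2 or more KO peaks, against 3.796%. At the start of Adamts12, a secreted metalloprotease of the matrix, WT peaks from 11064108 to 11065520 and from 11065626 to 11066117 lay under 1 KO peak from 11064035 to 11066263.

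More of the KO-only than of the WT-only peaks lay in gene bodies, as over the genome. A peak is at a gene end if its summit lies within 1 kb of either end of a protein-coding gene, in a gene body if it lies elsewhere within one, and otherwise between genes. Of the WT-only peaks 4.31% were at gene ends, 41.8% in gene bodies and 53.9% between genes, against 6.25%, 43.5% and 50.2% over all chromosomes. Of the KO-only peaks 4.65% were at gene ends, 48.9% in gene bodies and 46.4% between genes, against 4.35%, 47.5% and 48.1%. With a reciprocal overlap of 50% the difference was smaller: 43.6% of the peaks in WT alone and 47.3% of those in KO alone were in gene bodies, and 49.7% and 47.0% between genes. Shared WT peaks were at gene ends in 12.9%, against 14.8% over all chromosomes.

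The contrast with the genome was present in each position class. At gene ends 5.81% of WT peaks (4.21% to 7.98%) were WT-only, against 9.81% over all chromosomes, and 7.27% of KO peaks (5.42% to 9.68%) were KO-only, against 4.34%. In gene bodies the values were 15.4% against 20.5% in WT and 19.6% against 14.5% in KO. Between genes they were 18.1% against 23.5% in WT and 17.7% against 15.1% in KO.

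The WT-only peaks of chromosome 15 were farther from gene ends than those of the genome. A peak deep inside a long gene also counts as far from an end. More than 100 kb from a gene end lay 30.0% of them, against 21.2% over all chromosomes, while for KO-only peaks the values were 16.9% and 21.7%. The median distance from a KO-only peak to the nearest WT peak was 3612 bp, against 4767.5 bp over all chromosomes, and from a WT-only peak to the nearest KO peak 5168 bp, against 4858 bp. KO-only peaks of chromosome 15 thus lay closer to sites open in WT, whereas 80 of the 813 WT-only peaks lay in the gene-poor block described above.

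Most genes of the chromosome had the same state in both genotypes. With a peak overlapping the 1 kb on either side of a gene end, 519 of 776 genes, or 66.9%, were open in both lists, against 56.1% over all chromosomes, and 219, or 28.2%, in neither, against 40.2%. A WT peak alone was found at 18 genes, or 2.32%, against 2.47%, and a KO peak alone at 20, or 2.58%, against 1.31%. The median percentile at genes open in both lists was 92.9 in WT and 94.5 in KO. At genes open in a single list it was 19.96 for WT and 28.2 for KO, so these calls rested on weak peaks.

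Few genes with an end open in a single list passed the percentile of 50. Panx2, a pannexin channel gene, had a WT peak at 97.2, from 89074482 to 89077414, but that peak lies over the nearby start of Trabd and overlapped 2 KO peaks. Enpp2, the gene of autotaxin, which makes lysophosphatidic acid, had a KO peak at 78.7, from 54953493 to 54954386, that overlapped a WT peak just outside the window. At both genes the call followed from where a shared peak ended.

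Ncald, the gene of the neuronal calcium sensor neurocalcin delta, had a WT-only peak near an end of its span, from 37790372 to 37791776, at percentile 75.04. Fyb, an adaptor protein of T cells and platelets, had a KO-only peak at 62.9, from 6664805 to 6665369. The gene held many peaks in both lists, 27 in WT and 24 in KO, with 5 WT-only and 4 KO-only. Shared WT peaks inside it stood at up to 94.8, so the call concerns its end alone. Prph, the gene of the neuronal intermediate filament peripherin, had a KO-only peak at 51.5, from 99053490 to 99054050. The next genes below the limit were Prickle1 in KO at 47.7 and Iqank1 in WT at 35.7.

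Assigned to the nearest gene end within 100 kb, single-list peaks favoured KO at more genes than WT. A KO excess was found at 229 genes, or 29.5%, against 16.0% of genes over all chromosomes, and a WT excess at 172, or 22.2%, against 30.6%. The other 375 genes had equal numbers. The genes with the largest differences in each direction are described below in turn.

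**Figure D4:**
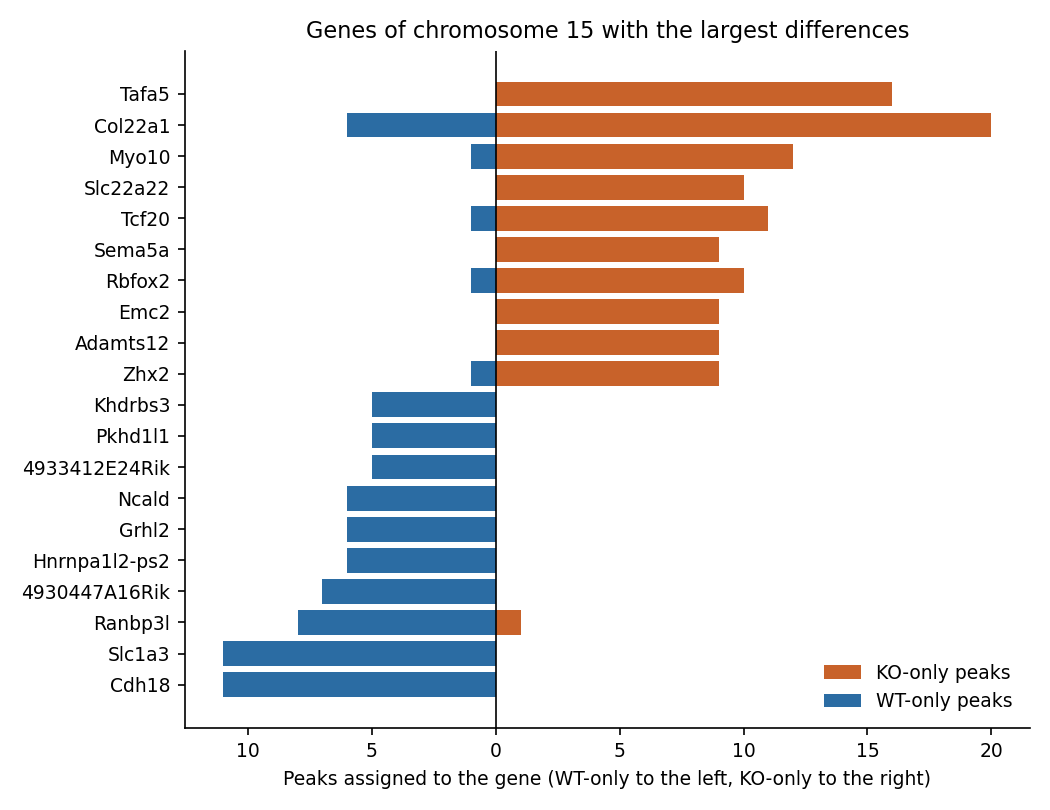
Numbers of WT-only peaks (bars to the left) and KO-only peaks (bars to the right) assigned to the 10 genes of chromosome 15 with the largest excess in each direction. Tafa5 has 16 peaks in KO alone and 0 in WT alone, Col22a1 has 20 and 6, and Cdh18 and Slc1a3 each have 0 and 11.

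Tafa5 lay alone in its stretch, with no peak at either gene end in either list. WT had 4 peaks there, all of them shared, and KO had 20, of which 10 KO-only peaks were inside the gene and 6 beyond it. The strongest KO-only peak, from 87716344 to 87717975, stood at percentile 83.1. It would count as shared under the looser rule, since a WT peak ending at 87715731 lay within 1 kb. The surrounding window from 87 to 88 Mb held 8 WT and 25 KO peaks, which covered 5.59 kb and 17.4 kb. The 4 shared sites, in order along the gene, stood at 81.3, 44.8, 17.9 and 56.9 in WT and at 88.1, 86.4, 80.9 and 89.4 in KO, so the KO peak ranked higher at each.

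Col22a1, a collagen of tissue junctions such as that of muscle and tendon, was split along its length. In the part toward the start of the chromosome, from 71795795 to 71973387, WT had 12 peaks and KO 7, with 6 WT-only and 1 KO-only. From there to 100 kb beyond the gene, at 72250979, WT had 7 peaks and KO 27, with 0 WT-only and 20 KO-only. The WT list covered 2.55 kb of that stretch and the KO list 17.4 kb. The strongest KO-only peak of chromosome 15, from 72107842 to 72109414 at percentile 85.5, lay in it. Opposite differences were thus found within a single gene.

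**Figure D5:**
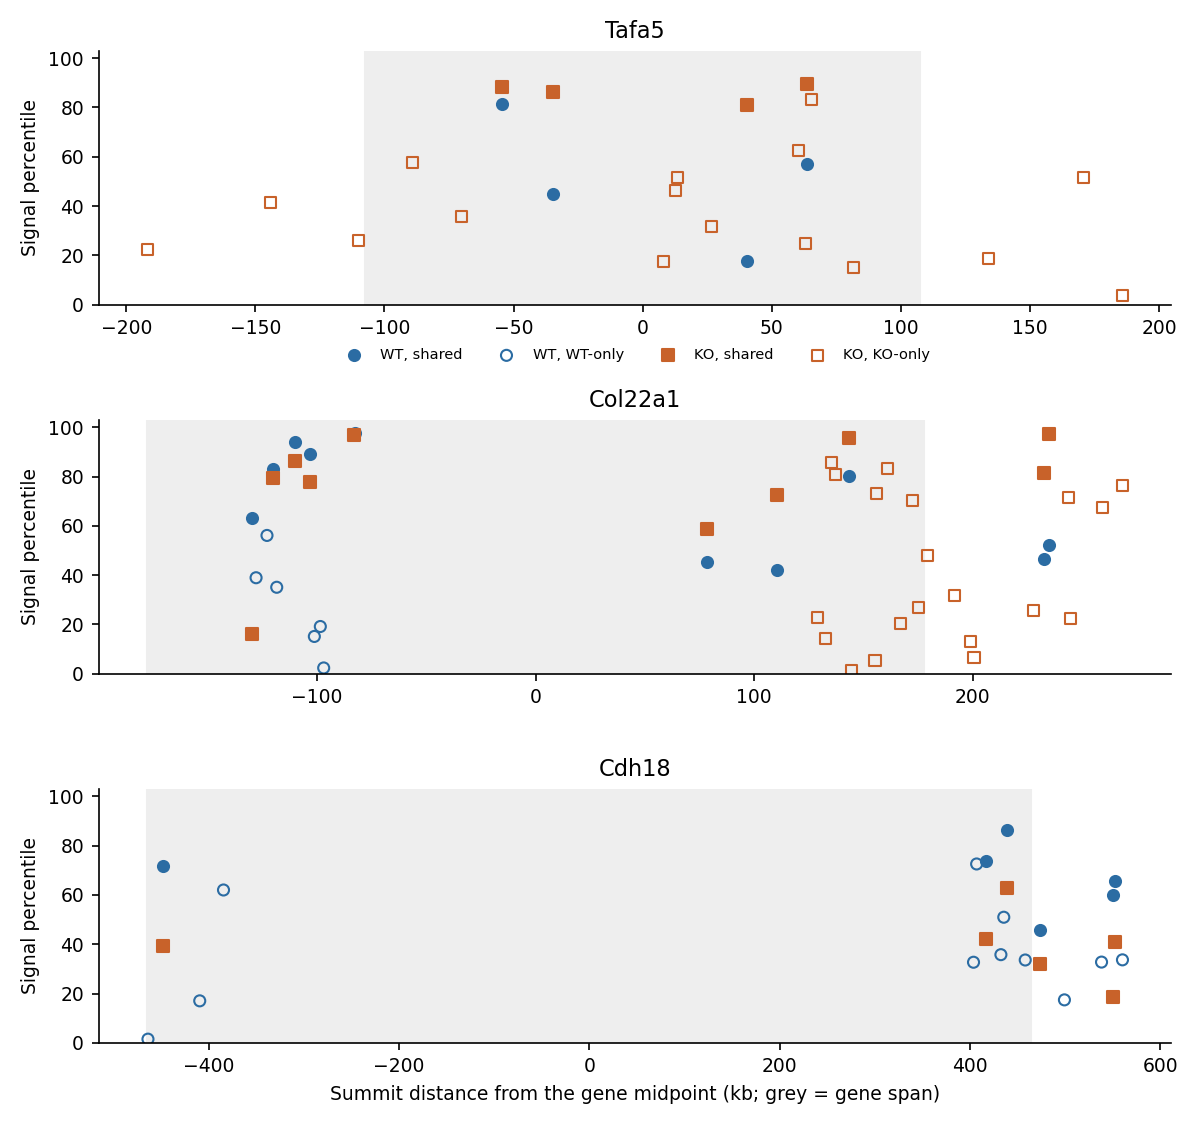
Signal percentile of each peak (vertical axis) by summit distance from the gene midpoint in kb (horizontal axis) at Tafa5, Col22a1 and Cdh18, with circles for WT, squares for KO, filled marks for shared peaks, open marks for single-list peaks and grey for the gene span. At Col22a1 the 6 WT-only peaks lie left of the midpoint and the 20 KO-only peaks right of it, and at Cdh18 the 11 open marks are all WT.

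Myo10, an unconventional myosin of filopodia, had 12 KO-only peaks and 1 WT-only peak among 32 KO and 20 WT peaks. Its strong peaks were alike in the lists: the gene-end peak stood at 99.7 in both. The 12 KO-only peaks had a median percentile of 14.9 and a highest of 31.5. None of them was among the upper 50% by signal, so its excess was 0 there. The same held for Tcf20, a transcriptional coregulator gene with 11 against 1, and for Rbfox2, a splicing regulator with 10 against 1. It held also for Emc2, a subunit of the membrane protein insertion complex, with 9 against 0, and for Zhx2, a homeobox repressor, with 9 against 1.

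At the other 3 genes a few stronger KO-only peaks stood among weak ones. Slc22a22, an organic anion transporter gene, had 10 peaks in KO alone and 0 in WT alone, the strongest from 57444120 to 57445259 at percentile 70.7 and a median of 14.1. Sema5a, a guidance cue of the semaphorin family, had 9 and 0, with KO-only peaks at up to 67.6 and a median of 26.6. Adamts12 had 9 and 0, with a highest value of 55.9 and a median of 8.28. Restricted to the upper 50% by signal, the differences were 1 for Slc22a22, 3 for Sema5a and 1 for Adamts12. At Adamts12 the gene-end peaks stood at 79.7 in WT and 95.7 in KO.

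On the WT side, Cdh18 had 17 WT and 6 KO peaks, with 11 WT-only and 0 KO-only. The 6 KO peaks stood at percentiles of 18.7 to 62.7, and the 6 WT peaks they overlapped at 45.8 to 86.5. The strongest WT-only peak there ran from 23419692 to 23420477 at 72.6. At the internal start whose window is printed above, the WT peak from 23035487 to 23037139 stood at 91.8 and the KO peak from 23036297 to 23036708 at 38.3. That start lies more than 100 kb from either end of the gene, so its peaks are not among the 17 and the 6. Hnrnpa1l2-ps2, a gene model inside Cdh18, had 6 WT-only and 0 KO-only peaks of its own.

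Slc1a3, the glial glutamate transporter gene, had 24 WT and 13 KO peaks, with 11 WT-only and 0 KO-only. The peak at its start ran from 8710032 to 8710985 in WT, at percentile 81.4, and from 8710158 to 8710568 in KO, at 27.7. Its distal shared peaks differed less: the strongest stood at 97.9 in WT and 93.3 in KO. The WT-only peaks had a median percentile of 25.1 and a highest of 50.5, 4 of them inside the gene.

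Ranbp3l, its neighbour, had 8 WT-only peaks and 1 KO-only peak, and the 8 lay outside the gene span. Counted within the gene span alone its difference turned to 1 more in KO. The strongest WT-only peak of chromosome 15, from 8882250 to 8884061 at percentile 91.4, lies 84508 bp from the nearest end of Ranbp3l. The gene-end peaks of Ranbp3l stood at 61.7 in WT and 14.7 in KO.

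Grhl2, a master regulator of epithelia, and Ncald lie side by side in the window from 37 to 38 Mb, which held 43 WT and 24 KO peaks. Grhl2 had 6 WT-only peaks and 0 in KO alone. The 6 had a median percentile of 50.3, the strongest lying from 37200490 to 37201425 at 73.2. Ncald had 7 WT and 2 KO peaks, and its 2 KO peaks, at 1.91 and 4.66, together overlapped a single WT peak at 73.6. The gene model 4930447A16Rik, inside the span of Ncald, had 7 WT-only and 0 KO-only peaks. Khdrbs3, an RNA-binding protein, Pkhd1l1, a large cell surface protein, and 4933412E24Rik each had 5 and 0.

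Peaks without a partner within 1 kb were ranked by signal, with 1 peak, the strongest, kept for each nearest gene. None of the first 10 of either genotype was at a gene end. After Ranbp3l, the strongest such WT peaks lay inside Fam135b, from 71549595 to 71550699 at 82.9, and inside Ncald, from 37769644 to 37770388 at 77.3. Those nearest to 4933412E24Rik, Hoxc4, Pdzrn4, Eif3h and Retreg1 stood at 71.1 to 76.1. After Col22a1, where further KO-only peaks stood at 83.4 and 81.0, the strongest such KO peaks lay 59883 bp from Osmr, an oncostatin M receptor chain, at 76.1, inside Deptor, an inhibitor of mTOR, at 75.9, and inside Chadl at 73.8. Those nearest to Cacng2, Mtss1, Adgrb1, Tspo and Tspyl5 stood at 68.9 to 73.7.

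The strongest shared peaks were nearly equal in rank. A peak inside Plec, the gene of the cytoskeletal linker plectin, from 76194846 to 76200233 in WT, stood at 99.98 in WT and 99.99 in KO. The peak at Myc, from 61983080 to 61988464, stood at 99.93 in WT and 99.96 in KO. From the start of Myc to 62990361, a stretch with 1 coding gene, Myc itself, WT had 80 peaks and KO 81, of which 8 and 11 lacked a partner. The others of the 10 strongest lay at Tns2, a second site in Plec, Dap, Ptger4, Atp5g2, Trib1, Azin1 and Tuba1c, with percentiles above 99.8 in both lists. The widest WT peak was at Ptger4, with 6196 bp, and the widest KO peak at Itga5, a fibronectin receptor chain, with 7282 bp. The most WT peaks, 39, were assigned to Ywhaz and the most KO peaks, 40, to Rbfox2.

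At genes of the extracellular matrix KO-only peaks were in excess. Over the 776 genes of the chromosome the numbers were 750 in KO alone and 569 in WT alone, with a median difference of 0 per gene. That was 16.9% of the assigned KO peaks and 13.1% of the assigned WT peaks. The 18 matrix genes had 48 peaks in KO alone and 20 in WT alone, and 28 and 14 without Col22a1. The 48 and 20 were 23.2% of their KO peaks and 10.7% of their WT peaks. Col22a1 alone gave 20 of the 48 KO-only peaks and 30 of the 207 KO peaks. Without it the KO-only share of the list was below the 16.9% over all genes. Of the 18, 8 had a KO excess, 6 a WT excess and 4 equal numbers. Col14a1, a fibril-associated collagen, had 6 in KO alone and 1 in WT alone, Sdc2, a heparan sulfate proteoglycan, had 5 and 0, and Has2, a hyaluronan synthase, had 4 and 0. At Col2a1, the collagen of cartilage, the best gene-end peak stood at 23.6 in WT and 74.5 in KO, a pair chosen after its values were seen. A best gene-end peak can be a different site in each list, as at Rad21 below. Of the 18, 13 had an end with a peak in both genotypes, including Ccn4 and Igfbp6 above percentile 99.5. The difference of 28 fell to 13 by gene span, 18 above the stricter summit threshold and 8 in the upper 50% by signal.

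Transcription factors showed a similar tilt. The 24 genes had 58 peaks in KO alone and 30 in WT alone, and 13 had a KO excess, 5 a WT excess and 6 equal numbers. The 58 and 30 were 22.7% of their KO peaks and 13.2% of their WT peaks. Besides Tcf20 and Zhx2, Mrtfa, an actin-sensitive coactivator of serum response factor, had 8 peaks in KO alone and 0 in WT alone. Its best gene-end peak stood at 90.7 in WT and 99.5 in KO, with the same limit as at Col2a1. Trps1 went the other way, with 5 in KO alone and 8 in WT alone, and so did Zfpm2, a GATA cofactor, with 3 and 6. Ends of 23 of the 24 were open in both lists, led by Myc and Klf10. In the upper 50% by signal the list's difference was 1, down from 28.

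Genes of the cytoskeleton and cell adhesion had 65 peaks in KO alone and 34 in WT alone. The KO-only share of their KO peaks, 18.7%, was near the 16.9% over all genes of the chromosome. The WT-only share was 10.1%, against 13.1%. Of the 21, 11 had a KO excess, 4 a WT excess and 6 equal numbers. Apart from Myo10, Ptk2, the gene of focal adhesion kinase, had 8 peaks in KO alone and 2 in WT alone, Myh9, a non-muscle myosin chain, had 7 and 4, and Lima1, an actin crosslinker, had 5 and 1. Rai14, an actin-associated protein, had 3 and 6. The list difference of 31 was 1 in the upper 50% by signal.

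Ligands and receptors were near balance, with 41 peaks in KO alone and 36 in WT alone over 22 genes. That was 17.2% of their KO peaks and 14.8% of their WT peaks. Of the 22, 7 had an excess in each direction. Within 50 kb of the genes the difference of 5 turned to -2. Sema5a and Npr3, a clearance receptor of natriuretic peptides with 5 in KO alone and 2 in WT alone, stood on the KO side. Ghr, the growth hormone receptor, with 3 and 6, and Celsr1, an adhesion receptor of planar polarity, with 1 and 4, stood on the WT side. Fzd6, a Wnt receptor, had a gene-end peak in KO alone at percentile 6.47, and Wnt7b, a Wnt ligand, in WT alone at 3.37.

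Genes of chromatin and the nuclear envelope had 20 peaks in KO alone and 12 in WT alone over 21 genes. That was 15.9% of their KO peaks and 9.84% of their WT peaks. Over all genes of the chromosome these shares were 16.9% and 13.1%. Of the 21, 17 had an end with a peak in both genotypes. At Rad21, a cohesin subunit gene, the best peak overlapping the gene-end window stood at 85.02 in WT and 0.161 in KO. The WT peak, from 51991616 to 51992556, had a KO partner from 51991606 to 51992444 at 84.1, which stopped 94 bp short of the window. Cbx5, the gene of heterochromatin protein HP1 alpha, had 2 peaks in KO alone and 0 in WT alone and a gene-end peak at 99.5 in WT and 99.7 in KO, which it shares with the adjoining Hnrnpa1. Sun2, a protein of the inner nuclear membrane, had 0 and 1. Hdac7, a class IIa histone deacetylase, had a gene-end peak in KO alone at percentile 24.1, with 3 peaks in KO alone and 0 in WT alone.

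The cadherin list leaned to WT. Its 6 genes, Ctnnd2 included, had 3 peaks in KO alone and 18 in WT alone, of which Cdh18 gave 11. The 3 and 18 were 16.7% of the KO peaks and 54.5% of the WT peaks of the list. Cdh12 had 0 and 3, and Cdh6, Cdh9 and Cdh10 had 0 and 1 each, while Ctnnd2, a delta catenin, had 3 and 1. No gene of this list had an end open in both lists, and the Cdh18 end had a WT peak alone at percentile 1.49. With assignment by gene span the difference was -40 instead of -15, since peaks more than 100 kb from an end are then counted too.

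In the Hoxc cluster, whose genes carry positional identity in skin fibroblasts, the lists were near equal. The cluster from 102921131 to 103036856 held 25 WT and 22 KO peaks, which covered 26.8 kb and 27.0 kb. Hoxc6, Hoxc5, Hoxc8 and Hoxc10 had ends open in both lists, led by Hoxc6 at 97.9 in WT and 98.9 in KO. Hoxc11 and Hoxc9 had a gene-end peak in WT alone, at percentiles of 27.0 and 15.4. The 9 genes together had 5 peaks in KO alone and 6 in WT alone.

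Housekeeping genes were open throughout. The 20 genes of translation and basic metabolism were open at an end in both lists, Rpl3 at 99.6 in WT and 99.2 in KO and Hnrnpa1 at 99.5 and 99.7. They had 15 peaks in KO alone and 18 in WT alone, a difference whose sign turned with the threshold. The shares were 11.5% of their KO peaks and 13.2% of their WT peaks. The 16 genes of transport and metabolism had 23 peaks in KO alone and 33 in WT alone, with 0 and 11 at Slc1a3 and 7 and 1 at Slc25a17, a peroxisomal carrier. That difference of -10 turned to 1 with assignment within 50 kb. The 23 and 33 were 17.2% of the KO peaks and 22.4% of the WT peaks of these genes. Cyb5r3, a cytochrome b5 reductase, had a gene-end peak in WT alone at percentile 21.3, and the ends of the other 15 genes were open in both lists.

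Markers of the labelled cell type were open in both lists. Of 16 dermal fibroblast markers over all chromosomes, 15 had an end open in both lists and 1, Lum, in neither. Fbln1, an elastic fibre protein and the marker on chromosome 15, stood at 74.7 in WT and 75.9 in KO, with 1 peak in KO alone and 2 in WT alone. Under the stricter summit threshold that difference of -1 turned to 1. Some markers on other chromosomes ranked lower in KO, among them Pdgfra, at 88.7 in WT and 73.6 in KO, and Dcn, at 71.1 and 51.1, while Col1a2 ranked higher, at 89.7 and 99.0. Prrx1 stood at 84.3 in WT and 1.38 in KO, where a KO peak at 80.3, overlapping the WT one, stopped 276 bp short of the window. These were chosen after their values were seen.

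Of 41 markers of other cell types on chromosome 15, 11 were open at an end in both lists, 3 in KO alone and 27 in neither. Of the 14 markers of the same lists on other chromosomes, 8 were open in both and 6 in neither, so such markers were not closed throughout. On chromosome 15, of 11 keratinocyte and epithelial markers 3 were open in both lists and 8 in neither, with Krt1, Krt2, Krt6a and Krt6b at 0 assigned peaks, and the list had 3 peaks in KO alone and 9 in WT alone, 6 of the latter at Grhl2. Of 14 leukocyte markers 4 were open in both, 1, Fyb, in KO alone and 9 in neither, with 12 peaks in KO alone and 7 in WT alone. Of 10 neural, Schwann and melanocyte markers 1, Arc, was open in both, Prph and Cacng2 in KO alone and 7 in neither, with 18 peaks in KO alone and 6 in WT alone. Cacng2, a subunit partner of AMPA receptors, gave 7 of the 18. Of the 4 muscle markers 2 were open in both and 2 in neither, with 7 peaks in KO alone and 2 in WT alone. Sntb1, which is also in the cytoskeleton list, gave 5 of the 7. Of the 2 endothelial markers 1, Acvrl1, was open in both, and they had 1 and 1. KO-only and WT-only shares were 7.89% and 19.1% for the keratinocyte list and 14.6% and 8.97% for the leukocyte list. For the neural list they were 29.0% and 12.8%, and for the muscle list 23.3% and 7.69%. Over all genes of the chromosome they were 16.9% and 13.1%. The share of other cells in these cultures was not tested.

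Gene families clustered on the chromosome, the Apol genes apart, were largely closed, and all showed few differences. Of 26 keratins 6 were open at an end in both lists and 20 in neither, led by Krt80 at 99.7 in WT and 99.8 in KO, with 3 peaks in KO alone and 4 in WT alone in all. The keratin cluster, from 101348315 to 102032026, held 42 WT and 40 KO peaks. The 15 Ly6 genes, of which 5 were open in both lists, had 7 and 10, with Ly6g open in WT alone at percentile 31.0. Of the 12 Apol genes 8 were open in both lists, and the 12 had 2 and 2. Of the 8 Cyp2d genes 1 was open in both lists, and the 8 had 1 and 0. The 9 olfactory receptor genes, all closed at their ends, had 0 and 1.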

How the data were processed

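ATAC-seq was done on 3 WT and 3 Lap2alpha KO libraries of cultured mouse dermal fibroblasts, 6 in all. The tools named per the submitters' processing notes are Bowtie2 2.5.1, Genrich and deepTools 3.5.1, with build GRCm38. Genrich's version and options, a Tn5 offset of reads and how libraries were merged are not given in the sources used here. For each genotype the authors deposited 1 combined peak list. Its columns hold a deposited score, a signal, a −log10 p at the summit, a q and the summit offset. The q was left out. By a check of the values, the score is the signal per base of peak length on a fixed scale with a ceiling, in 100% of peaks.

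The members and gene lists were chosen with earlier results of these data known. Coordinates are counted from 1, as in a genome browser. Python 3.11.15, numpy 2.4.6, pandas 2.3.3, scipy 1.17.1 and matplotlib 3.10.9 were used, and the overlap counts were tested on simulated data. Lists were compared by an overlap of 1 bp, and the signal was ranked within each whole list. Gene spans and promoter windows came from RefSeq tables of GRCm38.p6, and each peak was assigned to the nearest gene end within 100 kb. The tables give strand for the genes with a promoter entry, so either end of a gene counted. Named were the 10 strongest single-list peaks per genotype without a partner within 1 kb, at 1 per gene, the 10 genes with the largest difference in each direction, and the 10 strongest shared peaks. Also named were the 5 widest peaks and the genes with most peaks in each list, the largest differences by block and window, genes with an end open in a single list at a percentile of 50 or above, and 4 or fewer members per gene list. Printed promoters depart from the rule, since the windows of Fyb and Prph held no peak in either list.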

Additional observations from a re-analysis of the deposited data

How the results depend on the processing

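No paired analysis was possible because each genotype has 1 combined list whose columns carry no replicate, and for the same reason no library could be left out. WT-only and KO-only shares of 15.6% and 17.4% became 31.6% and 31.2% with a reciprocal overlap of 50%, 12.0% and 13.0% when a peak within 1 kb counted as a partner, 7.30% and 7.68% above a summit −log10 p of 7.72, 2.97% and 2.29% in the upper 50% by signal, and 11.9% and 18.9% with both lists cut to their 73554 strongest peaks. The excess of 90 KO-only peaks became -26, 45, 18, -17 and 309 under these settings in turn. Without the block from 20 to 25 Mb, a setting chosen after seeing the data, the WT-only share was 14.3% and the excess 170. By covered length the log2 ratio relative to all chromosomes was 0.20.

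WT-only peaks were at gene ends in 1.72% with a limit of 500 bp, 8.49% with 2 kb, 6.67% with reciprocal overlap, 2.80% above the stricter threshold and 1.25% in the upper 50%. They were in gene bodies in 38.5% above the stricter threshold and 31.2% in the upper 50%, and between genes in 49.7% with reciprocal overlap, 58.7% above the threshold and 67.5% in the upper 50%. KO-only peaks were at gene ends in 2.44% with 500 bp and 8.97% with 2 kb, and in the upper 50% in 3.17%, with 55.6% in gene bodies and 41.3% between genes. Genes open in KO alone numbered 10 in the upper 50%. The cause was not tested.

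The difference between KO-only and WT-only peaks changed sign for ligands and receptors (-2 within 50 kb), housekeeping genes (4 above the threshold, 1 in the upper 50%), transport genes (1 within 50 kb), the fibroblast marker (1 above the threshold) and Ranbp3l (1 by gene span). In blocks of 10 Mb, 7 of 11 had a KO excess, and 11 of 21 with 5 Mb blocks moved by 2.5 Mb. Depth is unknown, and weak peaks, which gave most single-list calls, sit closest to the calling threshold.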
